A study of Oryctolagus cuniculus with 6 samples.

Results

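The glutathione, thioredoxin and antioxidant genes were followed in rabbit blastocysts that had been cryopreserved. Members were the non-control probes whose annotation named, as a whole word, glutathione, thioredoxin, peroxiredoxin, superoxide dismutase, metallothionein, heme oxygenase or catalase. These were 115 of 43603 probes and stood for 50 genes, each described by its brightest probe over the 6 arrays. Of the 50 genes, 45 had a probe well above background in at least 3 of 12 channel measurements and were tested. The 5 others were SOD3, NME8, NME9, GSTT4 and TXNDC16. The rule for members used no expression value, but it was chosen with earlier results of these data known.

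Cells keep peroxides and superoxide low with layered enzymes. Superoxide dismutases turn superoxide into hydrogen peroxide, which catalase, glutathione peroxidases and peroxiredoxins then reduce. Glutathione and thioredoxin carry the electrons, glutathione S-transferases (GSTs) join glutathione to reactive compounds, metallothioneins bind zinc and copper, and heme oxygenases break down heme. Oxidative stress is a known concern when embryos are cooled, warmed and exposed to cryoprotectants.

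RNA came from New Zealand White rabbit blastocysts of 6 days, measured on 6 Agilent arrays that each carried 2 dye-labelled extracts. Vitrified embryos had passed through dimethyl sulphoxide and ethylene glycol at 12.5% each and then 20% each before liquid nitrogen. Frozen embryos had been brought to 1.5 M dimethyl sulphoxide and cooled at 0.3 °C per minute to -35 °C. Both kinds had then been transferred into recipient females and were viable at collection, while control embryos were untreated and developed in vivo. Cryopreservation and transfer therefore came together and cannot be told apart, and how many embryos made up an extract is not given in the sources used here. Each array set a treated extract against a control extract, with 3 arrays for each treatment. Treated RNA carried Cy5 on replicates 1 and 3 and Cy3 on replicate 2. Per the labels the same 3 control extracts served both treatments, so both comparisons share their controls. Vitrified 1, frozen 1 and frozen 2 lay on one slide and the other 3 arrays on a second slide.

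The share of probes well above background was 44.8% to 58.0% for green signals and 64.2% to 74.5% for red signals, depending on the array. No member spot was saturated. Markers of the labelled tissue were looked up. Of the tested trophectoderm genes 6 of 7, of the epiblast genes 3 of 3 and of the endoderm genes 7 of 8 were well above background in all 6 control channels. Only tested genes are counted, out of 10, 7 and 13 listed. On the same measure the uterine genes had 3 of 4 and the red blood cell genes 2 of 5, so these shares cannot tell tissues apart. A blastocyst holds several cell types, so fewer cells of a type and less RNA per cell cannot be told apart.

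All values below are log2 ratios of treated over control. A fitted value has the standard error (SE) of limma's fit over all 6 arrays with a dye term, and n = 3 arrays per treatment. Adjusted p is limma's, with Benjamini-Hochberg adjustment over all 30761 tested probes. Shares of all tested probes count every probe, dim and repeated ones included. Members count once per gene by the brightest probe, so the units differ.

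No antioxidant gene passed an adjusted p of 0.05 in any comparison. In vitrified against control embryos 0 of 45 genes were called, against 0.0195% of all tested probes, and the smallest adjusted p was 0.159 (MT3). In frozen against control embryos 0 of 45 were called, against 0.185% of all tested probes, and the smallest was 0.0844 (GSTO1). Between vitrified and frozen embryos 0 of 45 were called, against 0% of all tested probes, and the smallest was 0.593. With 3 arrays per treatment, the number of arrays limits the precision of every value.

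At an unadjusted p under 0.05 there were 12 of 45 genes in vitrified embryos, against 17.4% of all tested probes. Of these, 10 lay above 0 (background 9.98%) and 2 below (background 7.39%). In frozen embryos there were 8 of 45, against 13.2% of all tested probes, with 2 above 0 (background 6.06%) and 6 below (background 7.17%). Between the treatments there were 5 of 45, all higher in vitrified embryos, against 7.54% of all tested probes in either direction and 4.06% higher in vitrified embryos. On all 3 vitrified arrays, 13 of 45 genes were above 0 (background 20.4%) and 6 below (background 16.9%). On all 3 frozen arrays, 9 were above 0 (background 15.7%) and 10 below (background 14.7%).

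The shift of the members as a set was small. Their median was 0.08 in vitrified embryos and 0.00 in frozen embryos, beside 0.01 over all tested probes in each. Vitrified minus frozen had a median of 0.11 over the members and 0.02 over all probes. Of the 45 genes, 25 lay above 0 in vitrified embryos (51.3% of all tested probes did) and 23 in frozen embryos (51.7%), and 31 were higher in vitrified than in frozen embryos (53.3%). Fitted values of at least 0.5 in size were found for 3 genes in vitrified embryos (GSTO1, CCS and GSTP1), which is 6.67% of the members against 4.66% of all tested probes. In frozen embryos there were 4 (GSTO1, GST Yc, MGST3 and GPX5), 8.89% against 4.22%.

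**Figure D1:**
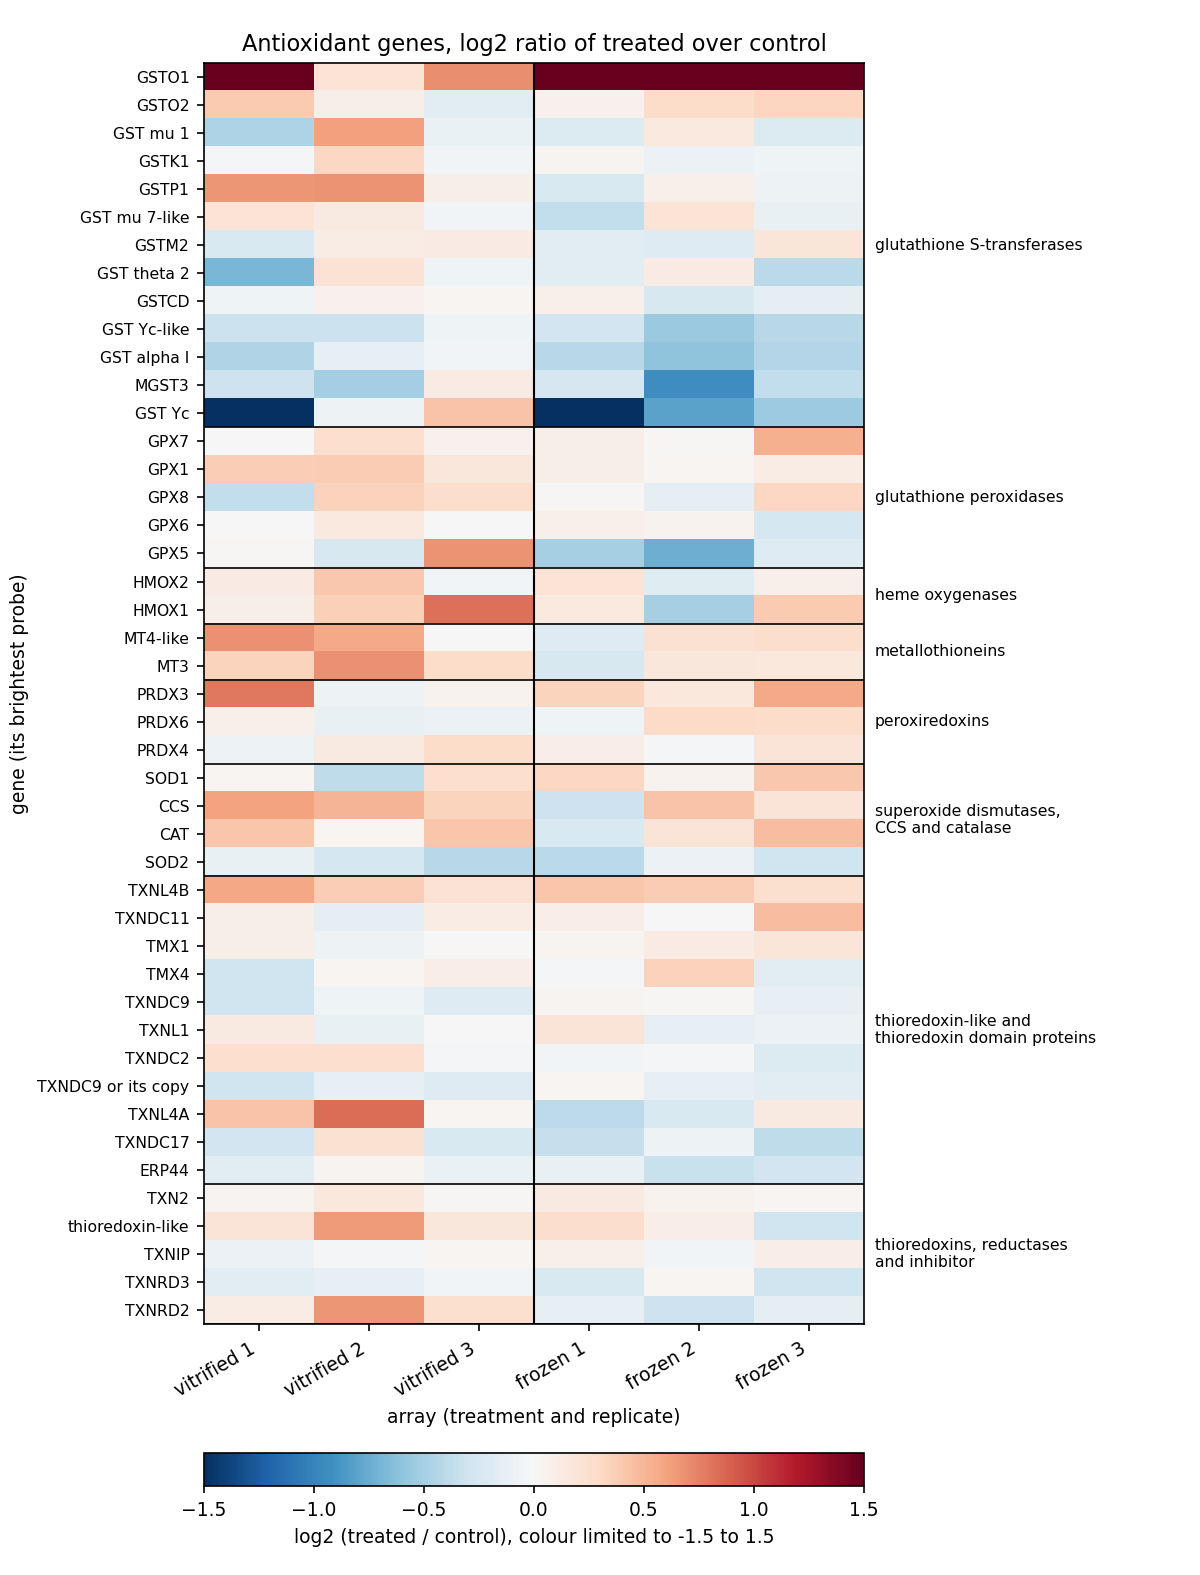
Log2 ratio of treated over control for the 45 tested antioxidant genes (rows, grouped by role) on each of the 6 arrays (columns); the colour scale stops at -1.5 and 1.5. Most cells are pale, GSTO1 is dark red on vitrified 1 and on all 3 frozen arrays, and GST Yc is dark blue on vitrified 1 and frozen 1.

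GSTO1 carried the largest positive value of the list. It encodes omega class GST 1, which reduces dehydroascorbate and removes glutathione from proteins. Its 5 probes lie on chromosome 18 of the files' annotation, chr18:52198513-52198577, plus strand; the genome build is not given in the sources used here. The outermost probes are printed because they show that the 5 probes read almost the same stretch, the 55 bases in capitals being shared by all of them.
GSTO1, first probe: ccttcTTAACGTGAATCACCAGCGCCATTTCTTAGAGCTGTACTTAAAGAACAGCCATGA
GSTO1, last probe: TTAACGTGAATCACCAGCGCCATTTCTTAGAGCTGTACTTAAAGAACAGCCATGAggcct

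In frozen embryos GSTO1 stood at 1.85, 1.84 and 1.50 on replicates 1, 2 and 3. In vitrified embryos it stood at 1.97, 0.20 and 0.69. All 6 arrays were above 0, the frozen arrays lay close together, and the vitrified arrays ranged from near 0 to above the highest frozen array. The fitted value in frozen embryos was 1.65 ± 0.27 (SE, n = 3), a 3.14-fold higher level (limma, adjusted p = 0.0844). In vitrified embryos it was 0.87 ± 0.27 (SE, n = 3; limma, adjusted p = 0.207). Vitrified minus frozen was -0.78 ± 0.37 (SE; limma, adjusted p = 0.687).

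The 5 overlapping probes gave 1.60 to 1.69 in frozen and 0.84 to 0.93 in vitrified embryos, which is one measurement repeated rather than 5 pieces of evidence. In frozen embryos the value ran from 1.12 (without frozen replicate 2) to 1.85 when each array was left out, and the adjusted p from 0.0149 (without vitrified replicate 1) to 0.9999 (without frozen replicate 2). The value for vitrified embryos moved when single arrays were left out, being 0.45 without vitrified replicate 1 and 1.41 without vitrified replicate 2. In each treatment only replicate 2 had treated RNA in Cy3. Without that array, the dye term of its treatment rests on the other treatment alone, so such a fit does not show the weight of the array by itself. The frozen arrays left without replicate 2 stood at 1.85 and 1.50. On the first slide GSTO1 was at 1.97 in vitrified embryos (1 array) and 1.85 in frozen embryos (2 arrays). On the second slide it was at 0.45 (2 arrays) and 1.50 (1 array), so vitrified minus frozen was 0.12 on the first slide and -1.06 on the second.

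GSTO2, the other omega GST, lies 27.1 kb further along the same strand. It was at 0.06, 0.28 and 0.32 in frozen and at 0.39, 0.08 and -0.17 in vitrified embryos. Fitted values were 0.22 ± 0.13 (SE, n = 3) and 0.11 ± 0.13 (SE, n = 3), neither past the test. The probes of these neighbours matched at 60.9% of 46 aligned bases.

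Alpha class GSTs, which in mammals also reduce lipid peroxides, had 3 genes on the array, all on chromosome 12 spread over 297 kb between the outer probes by the files' coordinates. Their probes are shown because the 3 genes are relatives, so that a reader can see how far their target sequences differ. The best match between genes among these probes, GST Yc and GST alpha I, was 62.5% of 32 aligned bases. Capitals mark the 40 bases shared by both probes of GST alpha I.
GST alpha I, brightest probe, chr12:42633670-42635530, minus strand: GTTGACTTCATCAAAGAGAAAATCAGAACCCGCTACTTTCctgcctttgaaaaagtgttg
GST alpha I, other probe, chr12:42635491-42635550, minus strand: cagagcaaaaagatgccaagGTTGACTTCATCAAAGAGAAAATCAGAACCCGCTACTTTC
GST Yc, chr12:42371619-42371678, minus strand: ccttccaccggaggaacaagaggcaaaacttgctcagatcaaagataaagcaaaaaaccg
GST Yc-like, chr12:42336294-42336353, plus strand: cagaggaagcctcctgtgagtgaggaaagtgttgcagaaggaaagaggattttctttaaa

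All 3 alpha GSTs were below 0 on all 3 frozen arrays, where 14.7% of all tested probes were. GST alpha I stood at -0.41, -0.61 and -0.44 in frozen and at -0.45, -0.12 and -0.04 in vitrified embryos. GST Yc-like stood at -0.29, -0.56 and -0.42 in frozen and at -0.32, -0.32 and -0.07 in vitrified embryos. The ranges of the treatments overlapped for both genes. Fitted values in frozen embryos were -0.49 ± 0.11 for GST alpha I (SE, n = 3; limma, adjusted p = 0.152) and -0.45 ± 0.10 for GST Yc-like (SE, n = 3; limma, adjusted p = 0.138). With the log ratio of the scanner software they were larger, -0.80 and -0.83.

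GST Yc was dimmer, well above background in 9 of 12 channels, and its values were wide. On the frozen arrays that held for 1 of 3 treated and 3 of 3 control channels. The size of its frozen values was thus measured near background. It stood at -1.69, -0.81 and -0.54 in frozen and at -1.52, -0.08 and 0.43 in vitrified embryos. The lowest value of each treatment fell on replicate 1. These arrays shared the control extract per the labels, and also the first slide and treated RNA in Cy5. These cannot be told apart. The fitted value in frozen embryos was -0.95 ± 0.36 (SE, n = 3; limma, adjusted p = 0.321), and -2.57 with the log ratio of the scanner software. In vitrified embryos it was -0.33 ± 0.36 (SE, n = 3), and 0.17 without vitrified replicate 1.

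Most tested markers of endoderm and yolk sac had negative values on the frozen arrays. Of 13 genes on that list 8 were tested, and their median was -1.13, -0.77 and -0.90 on the frozen arrays and -0.57, 0.22 and 0.35 on the vitrified arrays. One of them, the apolipoprotein gene APOA2, passed the test in frozen embryos (limma, adjusted p = 0.0427), with -1.28, -0.83 and -1.15 on the 3 frozen arrays and an SE of 0.12 on the fitted value. The mean log2 level of the 8 genes ran from 9.35 to 9.76 in control channels, from 9.22 to 9.81 in vitrified and from 8.76 to 9.07 in frozen channels. TTR was well above background in 0 of 12 channels. AFP and DAB2 had positive fitted values in frozen embryos, with AFP at 0.74, -0.38 and 0.48 and DAB2 at 1.12, 0.55 and 0.21 on the frozen arrays. AFP was dim, well above background in 6 of 12 channels. Of 3 tested epiblast markers, POU5F1 stood at -0.94, -0.88 and -0.56 and OTX2 at -0.68, -0.51 and -0.21 on the frozen arrays, while DPPA5 was fitted at 0.04. Of 7 tested trophectoderm markers 6 had positive fitted values in frozen embryos, with a median of 0.34. Their mean log2 level ran from 9.99 to 10.29 in control and from 10.28 to 10.55 in frozen channels, and that of the epiblast markers from 10.87 to 11.33 and from 10.62 to 10.91. None of the epiblast or trophectoderm markers passed the test. The part of these cell types in the alpha GST values was not tested.

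MGST3, a membrane-bound GST of the endoplasmic reticulum that acts on leukotrienes and lipid peroxides, had a single probe. It is printed as the probe behind the second smallest adjusted p of the frozen comparison, and its span of 1084 bases on chromosome 13 is longer than its 60 bases, so it crosses at least 1 intron.
MGST3, chr13:27247159-27248242, minus strand: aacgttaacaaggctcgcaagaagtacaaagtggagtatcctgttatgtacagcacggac

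MGST3 stood at -0.26, -0.93 and -0.37 in frozen and at -0.32, -0.51 and 0.13 in vitrified embryos. All 3 frozen arrays were below 0, frozen replicate 2 lowest, and the ranges overlapped. The fitted value was -0.61 ± 0.11 in frozen (SE, n = 3; limma, adjusted p = 0.115) and -0.32 ± 0.11 in vitrified embryos (SE, n = 3; limma, adjusted p = 0.234). Without vitrified replicate 1 the adjusted p in frozen embryos was 0.0319, at a value of -0.63, and over all alternatives it ran from 0.00295 to 1.00.

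GSTP1, the pi class GST common in many epithelia and placenta, took the other direction, with positive values in vitrified embryos. The files give no position for its probe, which is shown so that the gene can be identified.
GSTP1: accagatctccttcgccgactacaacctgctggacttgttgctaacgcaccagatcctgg

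GSTP1 stood at 0.67, 0.67 and 0.08 in vitrified and at -0.23, 0.08 and -0.08 in frozen embryos. The treatments did not overlap, although vitrified replicate 3 and frozen replicate 2 nearly met. The fitted value was 0.52 ± 0.13 in vitrified (SE, n = 3; limma, adjusted p = 0.173) and -0.03 ± 0.13 in frozen embryos (SE, n = 3). Vitrified minus frozen was 0.55 ± 0.18 (SE; limma, adjusted p = 0.593).

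The remaining GSTs were near 0. Mu class genes lay together on chromosome 13, and fitted values were 0.12 and 0.01 for GST mu 1, 0.00 and -0.06 for GSTM2, and 0.14 and -0.05 for GST mu 7-like in vitrified and frozen embryos. GST mu 1 ranged from -0.47 to 0.61 over the vitrified arrays. The mitochondrial and peroxisomal GSTK1, GST theta 2 and GSTCD, which carries a GST domain, lay between -0.12 and 0.10. Of all 13 tested GSTs, 6 were above 0 in vitrified and 3 in frozen embryos, beside 51.3% and 51.7% of all tested probes. At an unadjusted p under 0.05 there were 4 and 5, beside 17.4% and 13.2%.

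**Figure D2:**
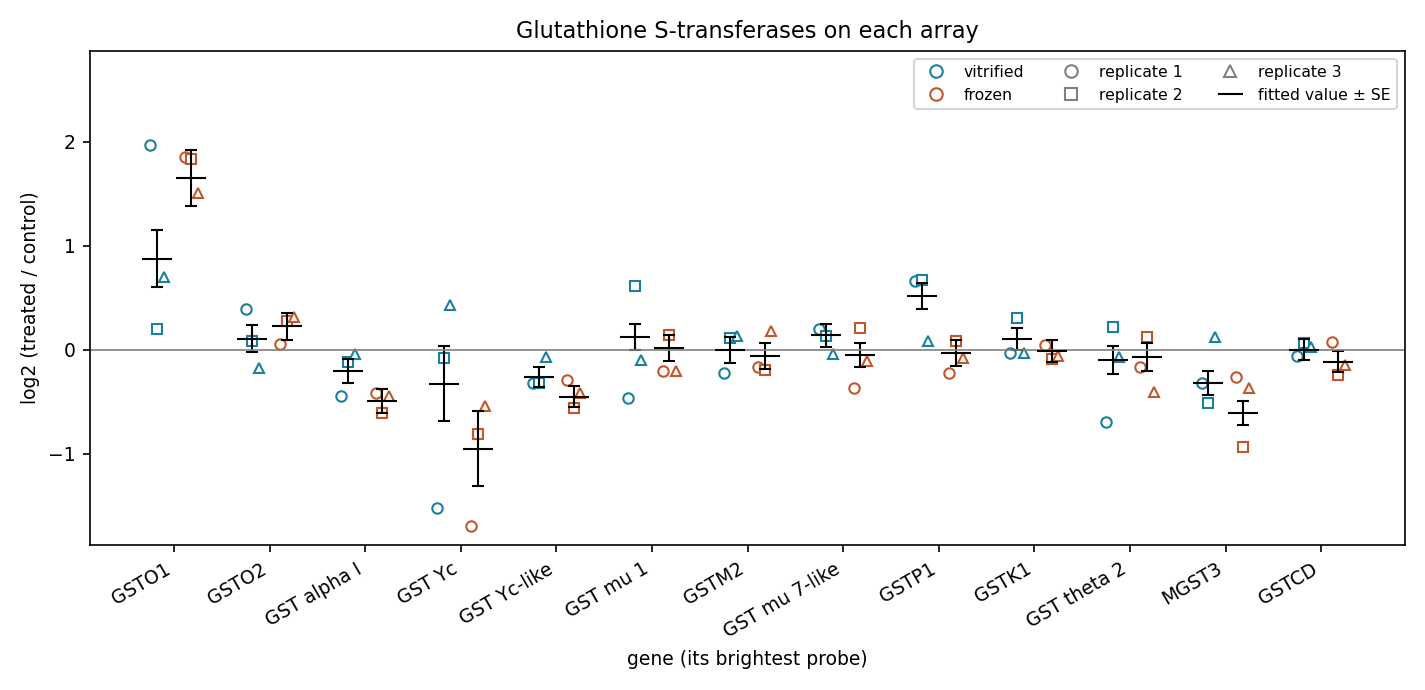
Log2 ratio of treated over control for the 13 tested glutathione S-transferases; open symbols are single arrays (blue vitrified, orange frozen, symbol shape by replicate) and black lines the fitted value ± SE. GSTO1 is above 0 on all 6 arrays, GST alpha I and GST Yc-like are below 0 on all 6, and GSTP1 separates the treatments.

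Glutathione peroxidases reduce peroxides with glutathione. GPX1, the widespread selenium enzyme of cytosol and mitochondria, stood at 0.37, 0.38 and 0.18 in vitrified and at 0.09, 0.03 and 0.11 in frozen embryos. Every vitrified array was above every frozen array. The fitted value in vitrified embryos was 0.31 ± 0.10 (SE, n = 3; limma, adjusted p = 0.202) and in frozen embryos 0.08 ± 0.10 (SE, n = 3). Its 2 probes shared no stretch longer than 5 bases and gave 0.31 and 0.30 in vitrified embryos.

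GPX5, known as a peroxidase of the epididymis, was dim, with 7 of 12 channels well above background. It stood at -0.49, -0.73 and -0.19 in frozen embryos and at 0.01, -0.24 and 0.68 in vitrified embryos. Frozen arrays were all below 0 and vitrified arrays lay on both sides. The fitted value in frozen embryos was -0.55 ± 0.14 (SE, n = 3; limma, adjusted p = 0.179), and for a probe this dim it moved with the processing, as far as -1.53 with the log ratio of the scanner software. GPX6, its neighbour at 31.2 kb, was at 0.07 and -0.02. GPX7 and GPX8, peroxidases of the endoplasmic reticulum, were at 0.10 and 0.09 in vitrified and at 0.21 and 0.07 in frozen embryos.

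The thioredoxin system reduces protein disulfides with electrons from NADPH. TXNRD2, the mitochondrial thioredoxin reductase, was at 0.11, 0.66 and 0.24 in vitrified and at -0.12, -0.31 and -0.13 in frozen embryos. It lay above 0 on all 3 vitrified arrays and below 0 on all 3 frozen arrays. Fitted values were 0.36 ± 0.12 (SE, n = 3; limma, adjusted p = 0.221) and -0.16 ± 0.12 (SE, n = 3; limma, adjusted p = 0.635). Vitrified minus frozen was 0.53 ± 0.17 (SE; limma, adjusted p = 0.593). Without vitrified replicate 2 the value in vitrified embryos was 0.08, and without frozen replicate 2 that in frozen embryos was 0.12. In these fits the dye term rests on the other treatment alone, and the frozen arrays left stood at -0.12 and -0.13.

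TXN2, the mitochondrial thioredoxin that TXNRD2 keeps reduced, was at 0.05, 0.16 and 0.02 in vitrified and at 0.14, 0.05 and 0.03 in frozen embryos. All 6 arrays were above 0 and none was above 0.16. TXNIP, the inhibitor that binds thioredoxin, was at -0.04 and 0.03, and its 6 arrays lay between -0.09 and 0.09. A predicted gene annotated only as thioredoxin-like was at 0.19, 0.64 and 0.17 in vitrified and at 0.26, 0.10 and -0.30 in frozen embryos (fitted 0.38 ± 0.13 and 0.07 ± 0.13, SE, n = 3). TXNRD3, a reductase known from mouse testis, was well above background in 4 of 12 channels. On the frozen arrays that held for 0 of 3 treated and 1 of 3 control channels, so no fold is given for it.

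Genes with a thioredoxin fold were divided. TXNL4B, a splicing factor, was at 0.58, 0.37 and 0.21 in vitrified and at 0.41, 0.39 and 0.24 in frozen embryos. It was the only tested member besides GSTO1, GPX1 and TXN2 to be above 0 on all 6 arrays. The share of all tested probes that did so was not counted. Both treatments share their control extracts, so a sign held on all 6 arrays is not separate evidence from each treatment, here or for other members. Fitted values were 0.39 ± 0.11 (SE, n = 3; limma, adjusted p = 0.186) and 0.35 ± 0.11 (SE, n = 3; limma, adjusted p = 0.236). Its relative TXNL4A, a core spliceosome protein, was at 0.43, 0.84 and 0.03 in vitrified and at -0.40, -0.22 and 0.14 in frozen embryos. TXNL4A therefore varied widely within each treatment. Its fitted value of 0.47 in vitrified embryos was 0.18 without vitrified replicate 2, where the dye term rests on the frozen arrays alone.

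ERP44, which retains proteins in the secretory pathway, was at -0.24 ± 0.10 in frozen embryos (SE, n = 3; limma, adjusted p = 0.359) and -0.07 in vitrified embryos. The cytosolic disulfide reductase TXNDC17 was at -0.20 ± 0.09 and -0.03. TXNDC9, a regulator of protein folding, was at -0.17 in vitrified and 0.00 in frozen embryos. A probe annotated to a TXNDC9-like gene lies 60 bases beyond it on the same strand of chromosome 2 and gave -0.20 and -0.08, so these entries may be the same gene. TMX1, TMX4, TXNDC11, TXNDC2 and TXNL1 lay between -0.07 and 0.18 in both treatments.

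Peroxiredoxins reduce peroxides with thioredoxin as the usual electron donor. Mitochondrial PRDX3 was at 0.34, 0.16 and 0.57 in frozen and at 0.80, -0.08 and 0.06 in vitrified embryos. The frozen arrays were all above 0, and vitrified replicate 1 was above each of them. The fitted value was 0.29 ± 0.15 in frozen (SE, n = 3; limma, adjusted p = 0.462) and 0.19 ± 0.15 in vitrified embryos (SE, n = 3). PRDX4, of the endoplasmic reticulum, was at 0.10 and 0.08 in vitrified and frozen embryos, and cytosolic PRDX6 was at -0.03 and 0.17.

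Superoxide dismutases did not follow a common direction. Manganese-dependent SOD2, of mitochondria, was at -0.11, -0.26 and -0.42 in vitrified and at -0.40, -0.09 and -0.30 in frozen embryos. It was below 0 on all 6 arrays, and the fitted value was -0.24 ± 0.11 in each treatment (SE, n = 3; limma, adjusted p = 0.300 and 0.388). The copper and zinc enzyme SOD1, of the cytosol, was at 0.03, -0.38 and 0.25 in vitrified and at 0.31, 0.05 and 0.41 in frozen embryos, with fitted values of -0.10 ± 0.10 and 0.19 ± 0.10 (SE, n = 3). Its 8 probes spanned -0.17 to -0.09 and 0.14 to 0.19, and 27 of their 28 pairs shared at least 20 bases.

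CCS, the chaperone that hands copper to SOD1, was at 0.60, 0.51 and 0.33 in vitrified and at -0.31, 0.43 and 0.19 in frozen embryos. The vitrified arrays were all above 0 and frozen replicate 1 stood apart below it. Fitted values were 0.52 ± 0.14 (SE, n = 3; limma, adjusted p = 0.181) and 0.15 ± 0.14 (SE, n = 3). Peroxisomal catalase, CAT, was at 0.42, 0.03 and 0.41 in vitrified and at -0.23, 0.19 and 0.46 in frozen embryos, with fitted values of 0.26 ± 0.15 and 0.12 ± 0.15 (SE, n = 3).

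The inducible heme oxygenase HMOX1 was at 0.08, 0.35 and 0.83 in vitrified and at 0.15, -0.50 and 0.39 in frozen embryos. Its 3 vitrified arrays were above 0 but far apart, and the fitted value was 0.35 ± 0.17 (SE, n = 3; limma, adjusted p = 0.336). Without vitrified replicate 2 that value was 0.07, and without vitrified replicate 1 it was 0.59. In the first of these fits the dye term rests on the frozen arrays alone, and the vitrified arrays left stood at 0.08 and 0.83. The constitutive HMOX2 was at 0.16 ± 0.13 in vitrified and 0.04 ± 0.13 in frozen embryos (SE, n = 3).

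MT3, best known as a metallothionein of brain, had the smallest adjusted p among members in vitrified embryos. Its 2 probes carry the same annotation but differ at 3 of the 45 bases where they overlap, the capitals below, so they cannot both match a single transcript exactly.
MT3, brightest probe, chr5:12893705-12894558, plus strand: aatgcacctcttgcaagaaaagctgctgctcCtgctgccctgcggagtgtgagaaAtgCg
MT3, other probe, chr5:12893720-12894573, plus strand: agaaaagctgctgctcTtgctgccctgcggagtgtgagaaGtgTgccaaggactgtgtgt

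MT3 was at 0.33, 0.68 and 0.28 in vitrified and at -0.24, 0.17 and 0.15 in frozen embryos, and the treatments did not overlap. The fitted value in vitrified embryos was 0.48 ± 0.11 (SE, n = 3; limma, adjusted p = 0.159) and in frozen embryos 0.08 ± 0.11 (SE, n = 3). Vitrified minus frozen was 0.40 ± 0.15 (SE; limma, adjusted p = 0.644). The other probe gave 0.50 and 0.01. Because metallothionein genes resemble each other and the probes differ, which of the family was read is uncertain.

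A metallothionein 4-like gene 17.4 kb from MT3 was dim, with 7 of 12 channels well above background. It stood at 0.69, 0.57 and 0.01 in vitrified and at -0.20, 0.23 and 0.27 in frozen embryos. The fitted value in vitrified embryos was 0.46 ± 0.15 (SE, n = 3; limma, adjusted p = 0.221), 0.28 as the median of its 5 probes and 1.20 with the log ratio of the scanner software.

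**Figure D3:**
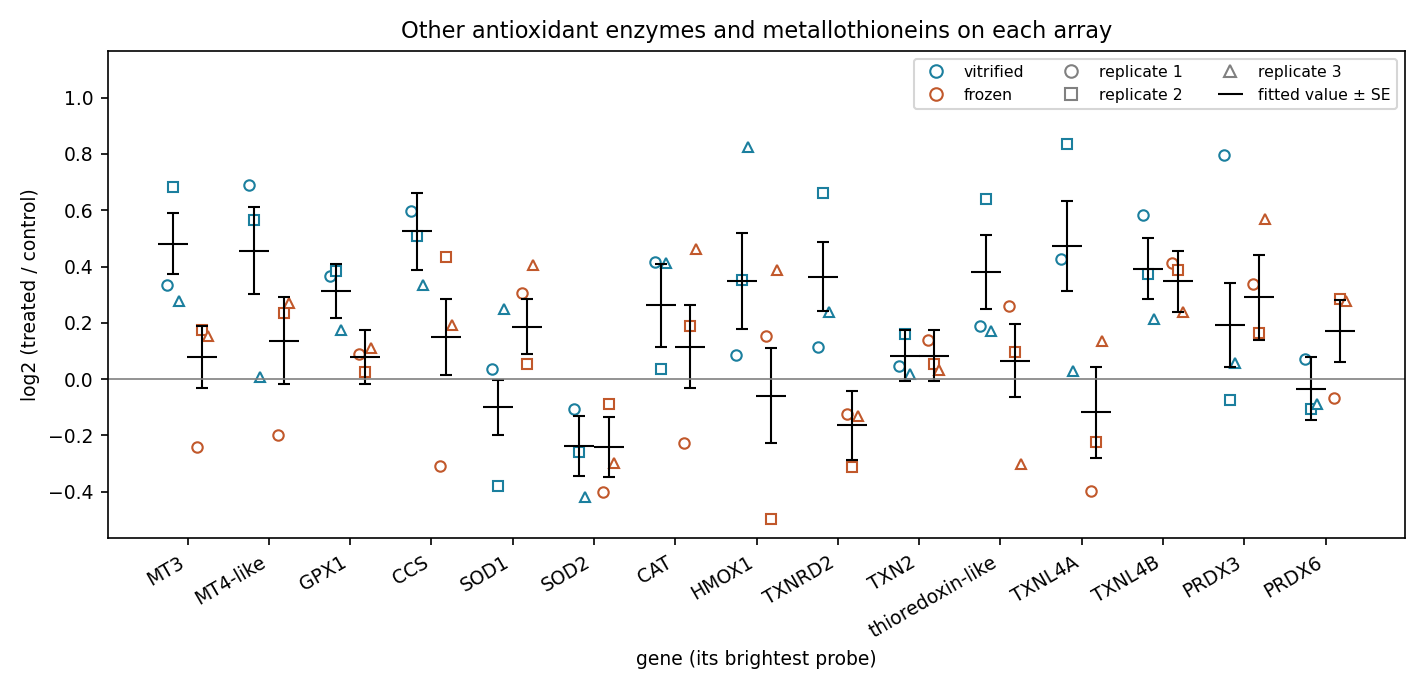
Log2 ratio of treated over control for 15 other antioxidant genes; open symbols are single arrays (blue vitrified, orange frozen, symbol shape by replicate) and black lines the fitted value ± SE. MT3, GPX1 and TXNRD2 separate the treatments, SOD2 is below 0 and TXNL4B above 0 on all 6 arrays, and HMOX1 is spread within each treatment.

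Arrays of the treatments did not overlap for 4 of 45 genes, GSTP1, GPX1, MT3 and TXNRD2. All 4 were higher in vitrified embryos, as were 5.75% of all tested probes, and no member was higher on every frozen array, as were 4.87% of all probes. On the first slide vitrified minus frozen was 0.74, 0.31, 0.37 and 0.33 for these genes, and on the second slide 0.46, 0.17, 0.33 and 0.58. These genes were picked because their arrays did not overlap, so a positive difference on each slide was fixed in advance. By place in the cell, 9 of 22 cytosolic, 3 of 4 mitochondrial and 5 of 10 endoplasmic reticulum genes were above 0 in vitrified embryos. In frozen embryos these were 10, 2 and 7. The shares over all tested probes were 51.3% and 51.7%.

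Some markers of other cells had high values in vitrified embryos. Of 12 red blood cell genes 5 were tested, with fitted values in vitrified and frozen embryos of 2.33 and 1.03 for the alpha globin HBA and of 3.61 and 1.92 for the beta globin HBB2. ALAS2, of heme synthesis, was at 0.75 and 0.28, and the membrane proteins SLC4A1 and EPB42 were at -0.07 and 0.00 in vitrified and at -0.12 and 0.09 in frozen embryos. SLC4A1 was well above background in 8 of 12 channels and EPB42 in 3 of 12, with 0 on the frozen arrays. Their ratios were thus measured near background. None of the 5 red blood cell genes passed the test. The mean log2 level of the 5 genes ran from 8.20 to 9.21 in control, 9.33 to 10.85 in vitrified and 8.50 to 9.90 in frozen channels. Of 8 uterine genes 4 were tested, with SCGB1A1, the rabbit uteroglobin, at 2.03 and 1.51 and WFDC2 at 1.08 and 0.32. WFDC2 was at -0.80 on frozen replicate 3. PGR, the progesterone receptor, was at 0.06 and 0.01, and the oviductal glycoprotein OVGP1 at 0.05 and -0.04. PGR was dim, well above background in 6 of 12 channels. None of the 4 passed the test. Their mean level ran from 7.92 to 8.47 in control, 8.87 to 9.32 in vitrified and 8.13 to 8.67 in frozen channels. The part of such cells or secretions in the values of GSTP1, GPX1, MT3, CCS and TXNRD2 was not tested.

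Genes that work beside the members were taken from a list of 57, of which 39 had a named probe and 37 were tested. None passed the test in any comparison. In vitrified embryos 23 of 37 were above 0 (51.3% of all tested probes) with a median of 0.07, and 14 had an unadjusted p under 0.05 (17.4% of all tested probes). In frozen embryos 18 were above 0 (51.7%) with a median of 0.00, and 9 had such a p (13.2%). Between the treatments 4 had such a p (7.54%).

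Regulators and targets of NRF2, the transcription factor of the antioxidant response, were divided. NFE2L2, which encodes NRF2, was at -0.08 and 0.01 in vitrified and frozen embryos, and KEAP1, which marks NRF2 for degradation, was at 0.38 ± 0.15 and 0.61 ± 0.15 (SE, n = 3; limma, adjusted p = 0.271 and 0.172). KEAP1 stood at -0.09, 0.96 and 0.69 on the frozen arrays. The ferritin light chain FTL, which stores iron, was at 0.91, 0.60 and 0.46 in vitrified and at 0.20, -0.29 and 0.19 in frozen embryos. All vitrified arrays were above all frozen arrays, and FTL was fitted at 0.61 ± 0.12 (SE, n = 3; limma, adjusted p = 0.146) and -0.01 ± 0.12 (SE, n = 3). In vitrified and frozen embryos NQO1 was fitted at 0.18 and 0.38, and SLC3A2 at 0.38 and -0.17. The others on this list were FTH1 at 0.12 and 0.04, SQSTM1 at -0.22 and -0.06, and BACH1 at -0.29 and -0.14.

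Among genes that make and use glutathione, the largest value was positive in vitrified embryos (CHAC1) and negative in frozen embryos (CBS). CHAC1, which degrades glutathione, was at 0.28, 0.65 and 0.67 in vitrified and at -0.02, 0.15 and -0.05 in frozen embryos (fitted 0.57 ± 0.11 and 0.06 ± 0.11, SE, n = 3; limma, adjusted p = 0.145 and 0.884). CBS, the entry from homocysteine towards cysteine, was at -0.65, -1.39 and -0.27 in frozen and at -0.67, -0.21 and 0.05 in vitrified embryos (fitted -0.84 ± 0.20 and -0.35 ± 0.20, SE, n = 3; limma, adjusted p = 0.162 and 0.403). The catalytic subunit of glutamate-cysteine ligase, GCLC, which limits glutathione synthesis, was fitted at 0.26 ± 0.11 in each treatment (SE, n = 3). Of the same list, GCLM was fitted at 0.07 and 0.19 and AHCY at -0.32 and -0.37 in vitrified and frozen embryos.

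Among the other partners, the methionine sulfoxide reductase MSRB1 was at -0.43 ± 0.11 in frozen and 0.00 ± 0.11 in vitrified embryos (SE, n = 3; limma, adjusted p = 0.175 and 0.987). NADPH sources had a median of 0.21 in vitrified and 0.00 in frozen embryos over 7 genes, with the mitochondrial transhydrogenase NNT at 0.39 and 0.15 and the dehydrogenase IDH1 at 0.37 and 0.12. The selenoprotein factors SEPHS1 and EEFSEC were at 0.25 and 0.23 in vitrified and at -0.04 and -0.13 in frozen embryos. SELENOP, the selenium carrier, was at -0.49 ± 0.12 and -0.42 ± 0.12 (SE, n = 3), below 0 on all 6 arrays. NOX4, an oxidase that makes hydrogen peroxide, was likewise below 0 on all 6 arrays, at -0.46 ± 0.13 and -0.45 ± 0.13 (SE, n = 3). Both treatments were measured against the same control extracts, so these paired values are not separate evidence.

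**Figure D4:**
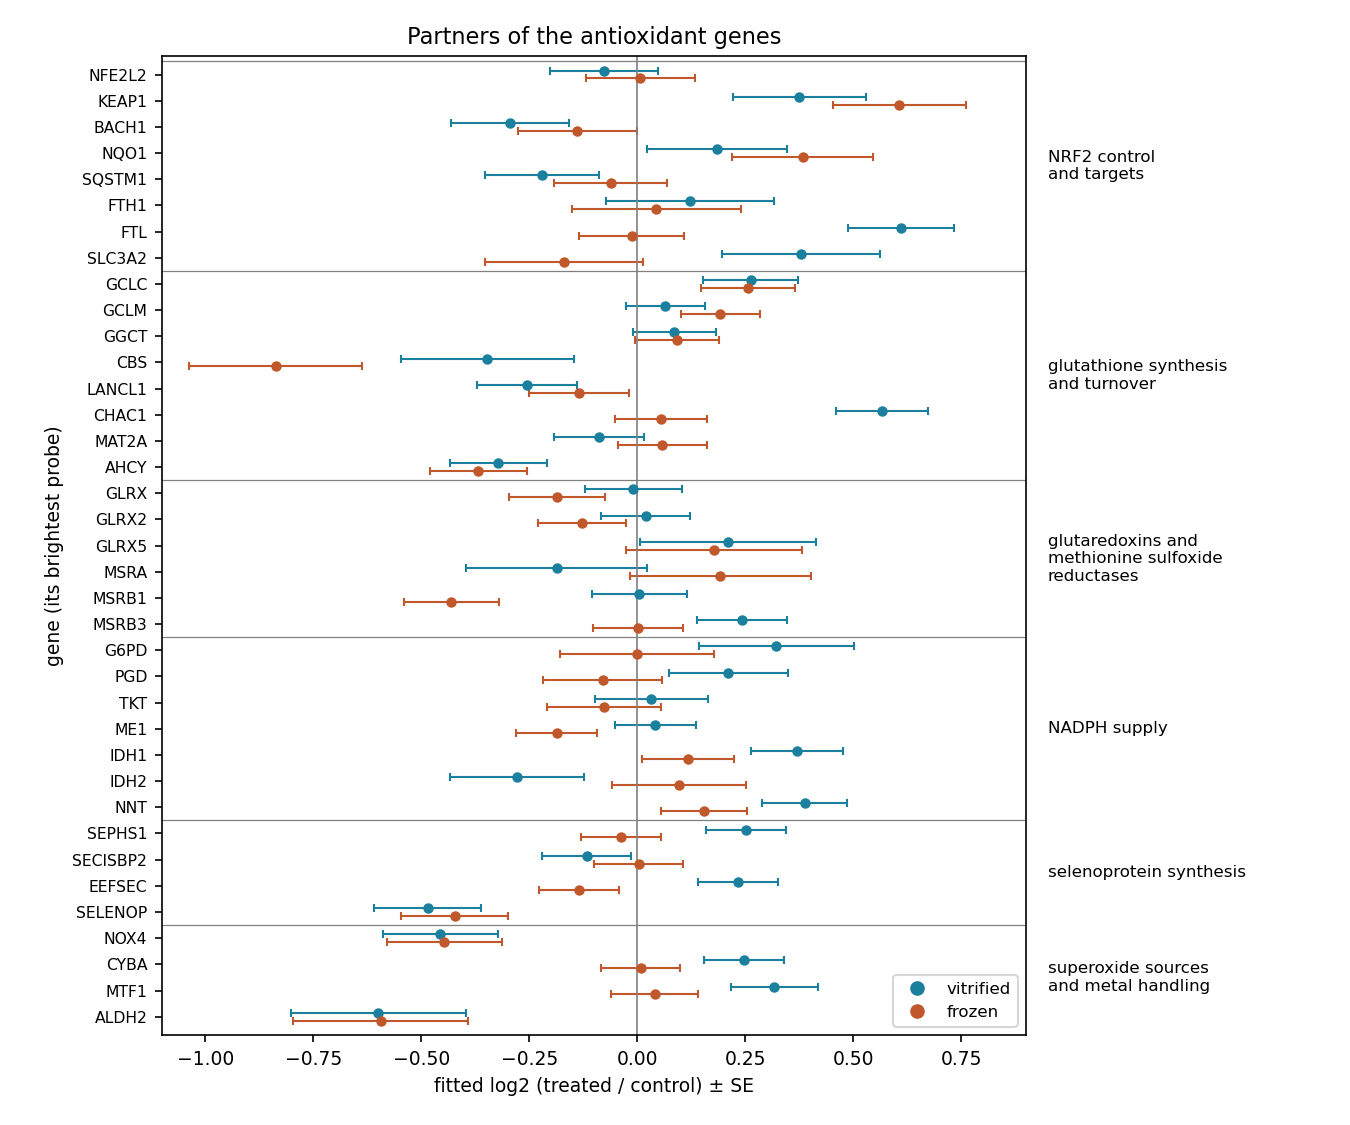
Fitted log2 ratio of treated over control (horizontal axis, bars are SE, n = 3 arrays per treatment) for the 37 tested partner genes, grouped by list; blue is vitrified and orange frozen. FTL and CHAC1 lie near 0.6 in vitrified and near 0 in frozen embryos, CBS is lowest in frozen embryos, and SELENOP and NOX4 are below 0 in both.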

How the data were processed

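Intensity was measured on 2-colour Agilent arrays. The deposited intensity of a spot is, per the file headers, its mean pixel signal, given with the median of its local background for each channel. The submitters' processing notes name Agilent Feature Extraction 10.10.1.1. That software also wrote a log10 ratio (red over green), after subtracting background and normalising the dyes per the file headers, which served here only as an alternative.

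From the deposited intensities, normexp background correction (offset 50) and loess within arrays (control spots at weight 0) gave ratios, turned to treated over control, in limma 3.58.1 (R 4.3.3). Probes well above background in 3 of 12 channels were tested. The fit had a term per treatment and one for dye, with 3 residual degrees of freedom, and was tested on simulated data. No exact test was run, because 3 vitrified against 3 frozen arrays cannot give a p below 0.1. Each comparison with control had only 3 ratios to set against 0. The design text of the series names 3 biological replicates, but how many embryos made up each extract is not given. The p-values measure only the spread between these samples. For each probe limma draws that spread towards the spread over all tested probes, with 4.54 prior degrees of freedom.

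Members, lists and tests were chosen with earlier results of these data known. Probes were named through the RefSeq rabbit genes (assembly mOryCun1.1), which gave 66 of the 115 member probes a symbol; the others carry the name in the files' descriptions. Named genes were the 10 smallest p per comparison, the classical enzymes, and the 5 largest values per direction held on all 3 arrays; the remaining members are mentioned so that each is accounted for. Partners named were the 5 smallest p per comparison. NFE2L2, GCLC, NQO1, SLC3A2, FTH1, SQSTM1, BACH1, GCLM and AHCY were added after their values were seen. APOA2 was named as the called gene of its list, and the other cell type markers after their values were seen. The promoter search that had been planned was not run.

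Replicate numbers pair the arrays, since the labels give same-numbered arrays the same control extract. Deviations of paired arrays from their group means correlated at 0.02, 0.598 and 0.169 for replicates 1, 2 and 3. Dye effects were not removed from these deviations, and replicate 2 had the swapped dyes in both treatments. Its value therefore cannot tell a shared control extract from a shared dye effect.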

Additional observations from a re-analysis of the deposited data

Results flagged for a closer look

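TXNRD2, the mitochondrial thioredoxin reductase, was singled out because all 3 vitrified arrays lay above 0 and all 3 frozen arrays below it. Vitrified minus frozen was 0.53 ± 0.17 (SE, n = 3 arrays per treatment). Limma's test of that difference did not pass (adjusted p = 0.593), and over all alternatives the difference ran from 0.30 to 0.77 with adjusted p from 0.0343 to 0.999. It was 0.33 within the first slide and 0.58 within the second. Since TXNRD2 was singled out for that separation, the positive sign on each slide was fixed in advance.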

How the results depend on the processing

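Of 45 antioxidant genes, none was called in any comparison under most alternatives. The exceptions were array weights (11 genes in vitrified, 11 in frozen embryos and 3 between the treatments), an adjusted p of 0.1 (1 gene in frozen embryos, GSTO1) and leaving out vitrified replicate 1 (GSTO1 and MGST3 in frozen embryos). Leaving out each array gave 0 to 2 called genes in frozen embryos and 0 in the other comparisons. Over all tested probes, 6 were called in vitrified embryos (6 higher, 0 lower) and 57 in frozen embryos (27 higher, 30 lower). In vitrified embryos the count was 0 with the log ratio of the scanner software, 0 with slide as a covariate and 3576 with array weights (2183 higher, 1393 lower), and 9 with median normalisation (8 higher, 1 lower). In frozen embryos it was 187 at an adjusted p of 0.1, 3 with a background offset of 10 (3 higher, 0 lower), 1 with the log ratio of the scanner software, 33 with median normalisation (8 higher, 25 lower), 8 without the dye term (6 higher, 2 lower), 0 with slide as a covariate and 5572 with array weights. Between the treatments it was 0, and 1137 with array weights. Leaving out each array gave 0 to 16 in vitrified and 0 to 502 in frozen embryos; it was 16 without vitrified replicate 3 and 502 without vitrified replicate 1. Leaving out replicate 2 of a treatment also leaves its dye term to the other treatment, so those fits do not show the weight of that array by itself. The cause of these moves was not tested. The median of the antioxidant genes in vitrified embryos was 0.08, and 0.0023 with median normalisation (0.0161 to 0.0958 leaving out each array, lowest without vitrified replicate 2). In frozen embryos it was 0.00, and -0.0512 with array weights (-0.0304 to 0.0557 leaving out each array). For vitrified minus frozen it was 0.11, and 0.0298 with median normalisation, 0.0773 with no filter, 0.1645 with array weights and 0.0638 with the median of each gene's probes (0.0733 to 0.1536 leaving out each array). The random replicate block (correlation -0.103) gave 8 called probes in vitrified and 61 in frozen embryos, and the fixed replicate block 0 between the treatments; pairing changed no call of an antioxidant gene. Values of the 34 named genes changed sign in 20 of 714 cases in vitrified, 29 of 714 in frozen embryos and 35 of 748 between the treatments, and in 0 cases where the value exceeded 2 SE. Signal over background, reached in 9 or fewer of 12 channels, limits GST Yc, GPX5, GPX6, GST theta 2, TXNRD3, TMX4 and the metallothionein 4-like gene.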
